A study of Homo sapiens with 8 samples.

Results

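The Fc receptor-like genes FCRL1, FCRL2, FCRL3, FCRL4, FCRL5 and FCRLA, the IgE receptor gene FCER2 (CD23) and the IgG receptor gene FCGR2B were followed in the JVM13 line after induction of cyclin D1. These are 8 of 18231 genes with a probe set of their own on the array. The group was put together from B-cell receptors of the immunoglobulin-binding kind after FCRL2 and FCER2 had been seen to be lower with cyclin D1 in these arrays, so FCRL2 and FCER2 were chosen by their measured differences from empty vector. Of the 40 probe sets annotated to exactly 1 of them, the one with the highest mean over all 8 arrays stood for each gene, and the others served as a check. That mean was used for the choice and is not a result. For FCRL5 the chosen probe set averaged 9.88 (log2) and the next 9.27, for FCRL2 7.80 and 6.80, for FCRL4 6.68 and 5.94, and for FCRL3 4.68 and 4.65.

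The human line JVM13 grew out of a B-cell prolymphocytic leukaemia. Its cells carried an inducible vector without insert (empty vector, titled control, 2 arrays), with wild-type cyclin D1 (3 arrays) or with the more stable T286A form (3 arrays), and all groups, the control included, received 0.1 µg/mL doxycycline. The study asked how an excess of cyclin D1, the partner of CDK4 and CDK6, alters gene expression in these cells. The labels give neither the length of induction, nor the number of independently made populations per construct, nor whether replicates were separate cultures, so the p-values may reflect technical scatter alone. Array medians lay between 5.47 and 5.62, and wild-type replicate 2 stood apart, with correlations to its group of 0.994 to 0.995 and a limma array weight of 0.513. Of 7 measured B-cell markers 6 lay above the median of all genes (5.94), among them MS4A1 (CD20) and CD79A. Those of T cells (0 of 5) and NK cells (0 of 5) lay below it. Of 5 myeloid markers, ITGAM was above it. All 5 plasma cell markers were also above it. The mean of the B-cell markers was 9.54 and 9.55 on the empty vector arrays, 9.39 to 9.46 with wild type and 9.46 to 9.48 with T286A. That of the plasma cell markers was 10.94 to 10.96, 11.10 to 11.13 and 10.81 to 10.88 in the same order.

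Fc receptor-like proteins are immunoglobulin-superfamily receptors found mainly on B cells. Their cytoplasmic tails carry tyrosine motifs, of which the inhibitory kind (ITIM) recruits phosphatases such as SHP-1 and dampens the B-cell receptor. CD23 is unlike them in fold, a C-type lectin that binds IgE with low affinity, is shed by the protease ADAM10, and is a standard marker of chronic lymphocytic leukaemia cells. FCGR2B, or CD32B, is the inhibitory IgG receptor of B cells. FCRL1 to FCRL5 lie next to each other on chromosome 1, FCRLA and FCGR2B lie further along it, and FCER2 lies on chromosome 19.

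FCRL2, FCRL4, FCRL5 and FCER2 were called lower with cyclin D1 in limma (adjusted p under 0.05). FCRL4 was so by a probe set other than the chosen one. The upstream windows of these 4 genes are shown for that reason. Each is the 250 bases before a RefSeq start site (GRCh38.p14), read 5′ to 3′ on the gene's strand, which is the minus strand for all 4. They are chr1:157777133-157777382 for FCRL2, chr1:157598086-157598335 for FCRL4, chr1:157552516-157552765 for FCRL5 and chr19:7702132-7702381 for the upstream start of FCER2. Capitals mark matches, on either strand, to the motifs named after the sequences.
FCRL2: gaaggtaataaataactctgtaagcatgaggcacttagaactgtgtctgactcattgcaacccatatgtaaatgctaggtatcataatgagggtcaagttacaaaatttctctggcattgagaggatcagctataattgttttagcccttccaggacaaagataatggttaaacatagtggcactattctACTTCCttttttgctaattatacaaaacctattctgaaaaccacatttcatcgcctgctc
FCRL4: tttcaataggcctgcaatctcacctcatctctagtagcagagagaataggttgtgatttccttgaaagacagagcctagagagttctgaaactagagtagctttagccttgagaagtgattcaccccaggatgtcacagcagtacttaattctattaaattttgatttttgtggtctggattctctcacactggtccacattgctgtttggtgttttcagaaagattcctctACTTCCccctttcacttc
FCRL5: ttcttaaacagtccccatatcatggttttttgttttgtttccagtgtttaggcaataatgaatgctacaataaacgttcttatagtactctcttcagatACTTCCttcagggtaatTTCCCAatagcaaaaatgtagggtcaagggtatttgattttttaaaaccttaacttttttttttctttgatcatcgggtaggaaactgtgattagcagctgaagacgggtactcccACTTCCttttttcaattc
FCER2: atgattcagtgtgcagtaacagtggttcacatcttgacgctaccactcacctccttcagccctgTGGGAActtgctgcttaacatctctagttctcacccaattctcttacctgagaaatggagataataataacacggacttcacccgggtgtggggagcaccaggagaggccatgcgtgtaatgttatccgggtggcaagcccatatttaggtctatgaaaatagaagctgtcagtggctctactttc

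The motifs searched were GGAAGT (the core read by ETS factors), GAGGAAGT (PU.1, which overlaps the former), TGGGAA (RBPJ), TTC and GAA with 4 bases between them (STAT6), ATGCAAAT (octamer), TTTCCCGC or TTTGGCGC (E2F) and the NF-kappa-B motif. The ETS core was added after the windows had been read, so its count in these windows is a description, not evidence. It was present, as ACTTCC, in the windows of FCRL1, FCRL2, FCRL4, FCRL5, FCRLA and FCGR2B, 6 of the 10 windows of these genes, against 19.5% of all 35116 windows. It lay 60 bases before the start in FCRL2 and 18 bases before it in FCRL4 and in FCRL5. The longest run shared by the FCRL2 and FCRL5 windows was the 12 bases ACTTCCTTTTTT around this match, found in 7 of all windows. That run was counted on the same strand only, and the 7 windows include those of FCRL2 and FCRL5. It was picked as the longest run they share, so its rarity is a description, not evidence. FCER2 and FCRL3 hold no ETS core match in their windows. TGGGAA was found in the windows of FCRL3, FCRL5, FCER2 and FCGR2B, and in 20.8% of all windows. An NF-kappa-B match was found at the downstream start of FCER2, in FCRL3 and in FCGR2B (9.96% of all windows). STAT6 matches were found in FCRL1 and FCRL3 (5.38% of all windows) and PU.1 matches in FCRL1 and FCRLA (2.17%). The 10 windows of the 8 genes held no octamer match (1.63% of all windows) and no E2F match (1.93%). A match is a run of letters, not a measured binding site.

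By their chosen probe sets, FCRL2, FCRL5 and FCER2 were the members called lower in a comparison with empty vector. FCRL4 was called lower with wild type by another of its probe sets and by the average of its probe sets, as described below. In wild-type cells 2 of 8 members, FCRL2 and FCRL5, were called lower and 0 higher, where 1.14% of all genes were called lower and 0.603% higher. In T286A cells 3 of 8, FCRL2, FCRL5 and FCER2, were called lower and 0 higher, where the shares of all genes were 0.192% and 0.34%. Calls rest on limma's two-sided moderated test fitted on all 8 arrays, with p adjusted for all 18231 genes by Benjamini and Hochberg and a threshold of 0.05. The median member difference was -0.16 with wild type and -0.15 with T286A, against 0.0016 and -0.0030 for all genes. FCRL2 and FCER2 were known to move when the group was named, so these counts are no independent evidence. Both constructs were set against the same pair of control arrays, so their differences are not independent of each other. The mean of the B-cell markers was also lower in all 6 construct arrays than in the controls, and its part in these differences was not tested. With wild type it was lower mainly through CD22 (-0.40) and CR2 (-0.35). BLK and CD79B were at -0.086 and -0.016, while MS4A1, CD79A and PAX5 lay between 0.0062 and 0.055. With T286A 5 of the 7 markers were below empty vector. These were CR2 (-0.32), CD22 (-0.18), CD79A (-0.13), MS4A1 (-0.12) and CD79B (-0.050), while PAX5 and BLK were at 0.16 and 0.15. In bulk RNA, fewer cells carrying a transcript and less of it per cell cannot be told apart.

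**Figure D1:**
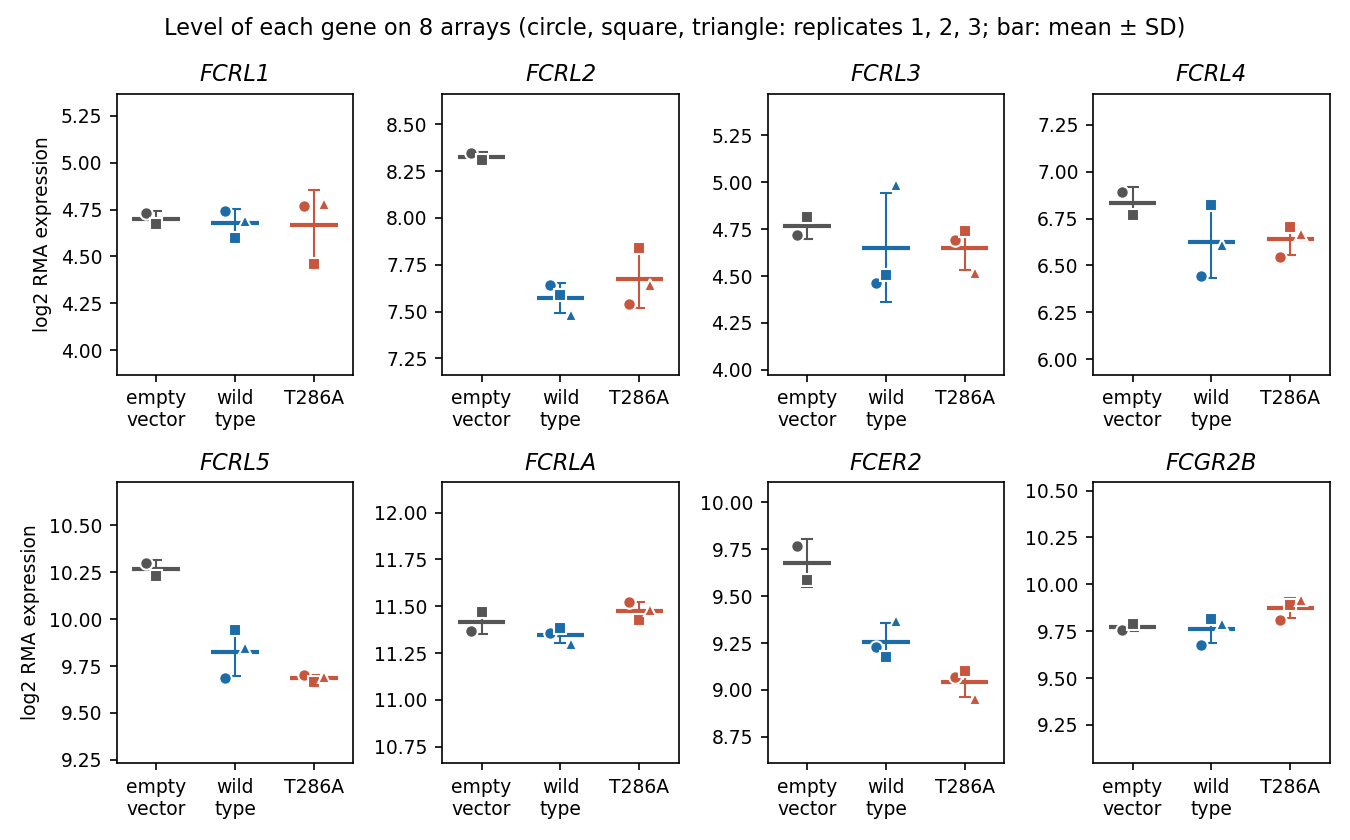
Log2 RMA expression of the chosen probe set of each gene (vertical axes of equal span) by group; points are arrays, horizontal lines the group means and error bars the SD (empty vector n = 2, wild type and T286A n = 3). In FCRL2, FCRL5 and FCER2 both empty vector arrays lie above all 6 construct arrays, whereas in the other 5 genes they do not. Of all genes, 30.5% had no overlap between wild type and empty vector and 31.9% none between T286A and empty vector, in either direction. The share with no overlap for both constructs together is not given.

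FCRL2, a receptor of memory B cells that carries ITIMs, was lower in both constructs by its chosen probe set. Its log2 levels were 8.34 and 8.31 in empty vector, 7.64, 7.59 and 7.48 with wild type, and 7.54, 7.84 and 7.64 with T286A. Both controls were thus above every construct array, and the constructs overlapped each other. The difference was -0.75 ± 0.097 (SE) with wild type (3 against 2 arrays, limma adjusted p = 0.0112), which leaves 59.3% of the control level. With T286A it was -0.65 ± 0.097 (limma adjusted p = 0.0388), or 63.6% of the control level. Between the constructs, T286A lay 0.10 above wild type (95% interval -0.098 to 0.30, limma adjusted p = 0.651), which was not called. The call with wild type was lost without either empty vector replicate (adjusted p = 0.108 and 0.109). The call with T286A was lost without any 1 of the 8 arrays (adjusted p from 0.051 to 0.27), with differences of -0.74 to -0.59.

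The remaining FCRL2 probe sets mostly ran the same way. Of 11, 10 were below empty vector with wild type and all 11 with T286A. Fitted as single probe sets, with p adjusted over 45220, 3 were called lower with wild type and 1 with T286A, where 0.847% and 0.122% of all probe sets were called in either direction. Averaged over all 11, the difference with T286A was -0.48 (limma adjusted p = 0.0434). One marked _a_at averaged 6.15 in empty vector and fell by 0.90 with wild type and 0.96 with T286A (limma adjusted p = 0.0198 and 0.0462). Probe sets of a gene read the same RNA and are not replicates. Some told the constructs apart more than the chosen one did, without a common direction. T286A minus wild type was above 0 in 7 of the 11 and below 0 in 4. In 2 of the 11 the constructs did not overlap, as in 19.8% of all genes by chosen probe set. The _x_at probe set with a mean of 5.74 stood at 6.47 and 6.15 in empty vector, 5.32, 5.40 and 5.36 with wild type, and 5.70, 5.67 and 5.86 with T286A. These 3 groups did not overlap, yet T286A minus wild type, 0.39 ± 0.097, was not called (limma adjusted p = 0.176).

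FCRL5, an ITIM-bearing receptor that binds IgG and is also found on plasma cells, was lower in both constructs. Its levels were 10.30 and 10.23 in empty vector, 9.69, 9.94 and 9.85 with wild type, and 9.70, 9.66 and 9.69 with T286A. The controls again stood above all construct arrays, and the T286A arrays lay within the range of wild type or just below it. The difference was -0.44 ± 0.085 with wild type (limma adjusted p = 0.0470, 73.7% of the control level) and -0.58 ± 0.085 with T286A (adjusted p = 0.0352, 66.8%). The wild-type call held without wild-type replicate 2 and was lost without any of the other 7 arrays (adjusted p from 0.0806 to 0.244). The T286A call held without wild-type replicate 1 or 2 and was lost without any of the other 6 (adjusted p from 0.0645 to 0.268). Differences stayed between -0.50 and -0.37 with wild type and between -0.62 and -0.55 with T286A. Averaged over its 9 probe sets, FCRL5 was at -0.29 with wild type, which was not called (limma adjusted p = 0.152), and at -0.50 with T286A (adjusted p = 0.0347).

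All 9 FCRL5 probe sets were below empty vector in both constructs. Differences ran from -0.44 to -0.10 with wild type and from -0.77 to -0.23 with T286A. Among single probe sets limma called 0 with wild type (smallest adjusted p = 0.0749) and 1 with T286A, an _a_at probe set with a mean of 8.97, against the same shares of all probe sets as above. Its levels were 9.43 and 9.39 in empty vector, 8.89, 9.10 and 9.05 with wild type, and 8.47, 8.74 and 8.71 with T286A. Here the 3 groups were fully separate, in the order empty vector, wild type, T286A. It fell by 0.77 ± 0.10 with T286A (limma adjusted p = 0.0476), and T286A minus wild type was -0.38 ± 0.094 (adjusted p = 0.175). T286A was below wild type in all 9 probe sets, with 0 called by limma (smallest adjusted p = 0.175). The mean of the plasma cell markers was likewise lower with T286A than with wild type, and its part in this order was not tested. For the chosen probe set that difference was -0.14 (95% interval -0.31 to 0.032).

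FCER2 had a single probe set. Its levels were 9.77 and 9.59 in empty vector, 9.23, 9.17 and 9.37 with wild type, and 9.07, 9.10 and 8.95 with T286A. The 3 groups did not overlap and ran in the order empty vector, wild type, T286A. The difference was -0.64 ± 0.091 with T286A (limma adjusted p = 0.0325), or 64.3% of the control level. With wild type it was -0.42 ± 0.091, or 74.7%, and missed the threshold (adjusted p = 0.0701). That difference was called when genes were averaged over their probe sets, when dim genes were left out and with trended robust eBayes (limma adjusted p = 0.0450, 0.0237 and 0.00573). Averaging left its value unchanged, since FCER2 has a single probe set. It stayed uncalled with array weights, re-normalization, housekeeping centring, all probe sets fitted singly, only the groups compared and the replicate block (limma adjusted p from 0.0592 to 0.195). It was also uncalled without any 1 of the construct arrays. The step from wild type to T286A was -0.22 (95% interval -0.40 to -0.028, limma unadjusted p = 0.0289, adjusted p = 0.309) and was not called. The T286A call held without wild-type replicate 2 and was lost without any of the other 7 arrays (adjusted p from 0.0508 to 0.24). CD23 is known in an A and a B form with different start sites, and which of them this probe set reads was not examined.

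**Figure D2:**
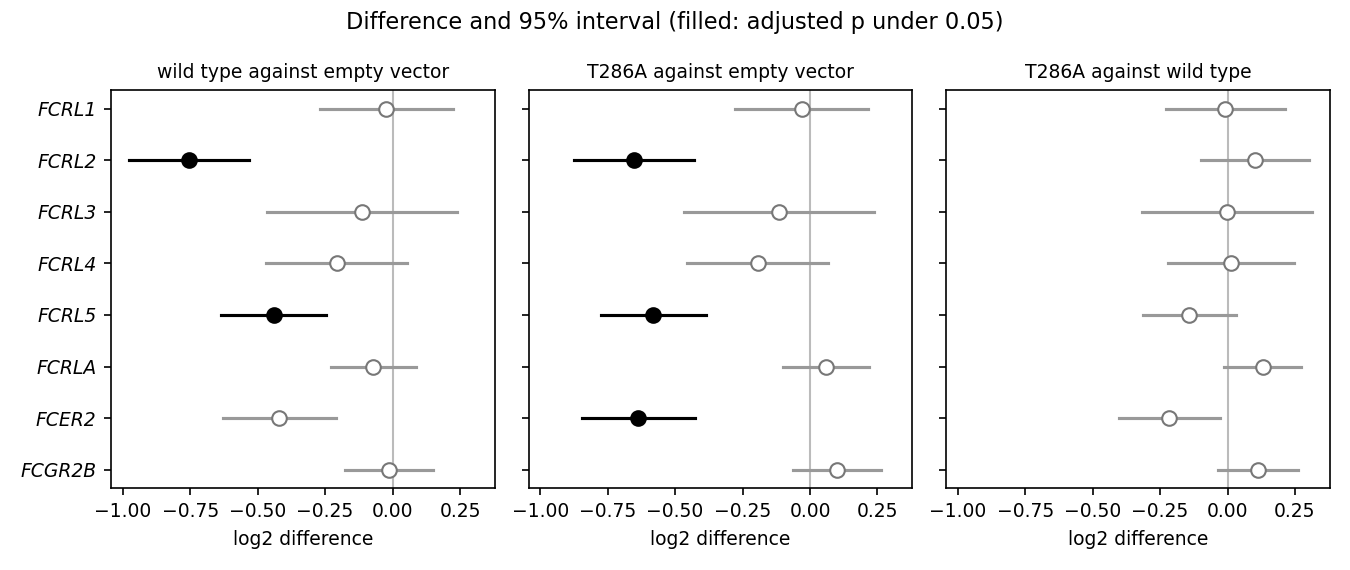
Log2 difference of each gene (points) with its 95% interval from limma (lines) for 3 comparisons; filled black points have an adjusted p under 0.05. FCRL2 and FCRL5 are filled in both comparisons with empty vector and FCER2 with T286A, and no point is filled in T286A against wild type.

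FCRL4, an inhibitory receptor that binds IgA and marks memory B cells of mucosal tissue, gave a result that depended on the probe set. The chosen one is of the _x_at kind, whose probes can also bind other transcripts. Its levels were 6.89 and 6.77 in empty vector, 6.44, 6.82 and 6.61 with wild type, and 6.55, 6.70 and 6.67 with T286A. Wild-type replicate 2 lay between the controls, and the differences of -0.21 and -0.19 were not called (limma adjusted p = 0.495 and 0.570). All 4 probe sets were below empty vector in both constructs. One marked _a_at, which by the manufacturer's naming reads transcripts of 1 gene, was at 5.90 and 6.22 in empty vector, 5.36, 5.25 and 5.28 with wild type, and 5.63, 5.51 and 5.62 with T286A. Its groups did not overlap. It fell by 0.76 ± 0.10 with wild type (limma adjusted p = 0.0181), and its difference with T286A was -0.47 ± 0.10 (adjusted p = 0.125). Averaged over its 4 probe sets, FCRL4 fell by 0.54 with wild type (limma adjusted p = 0.00566), and its difference with T286A was -0.35 (adjusted p = 0.0515).

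**Figure D3:**
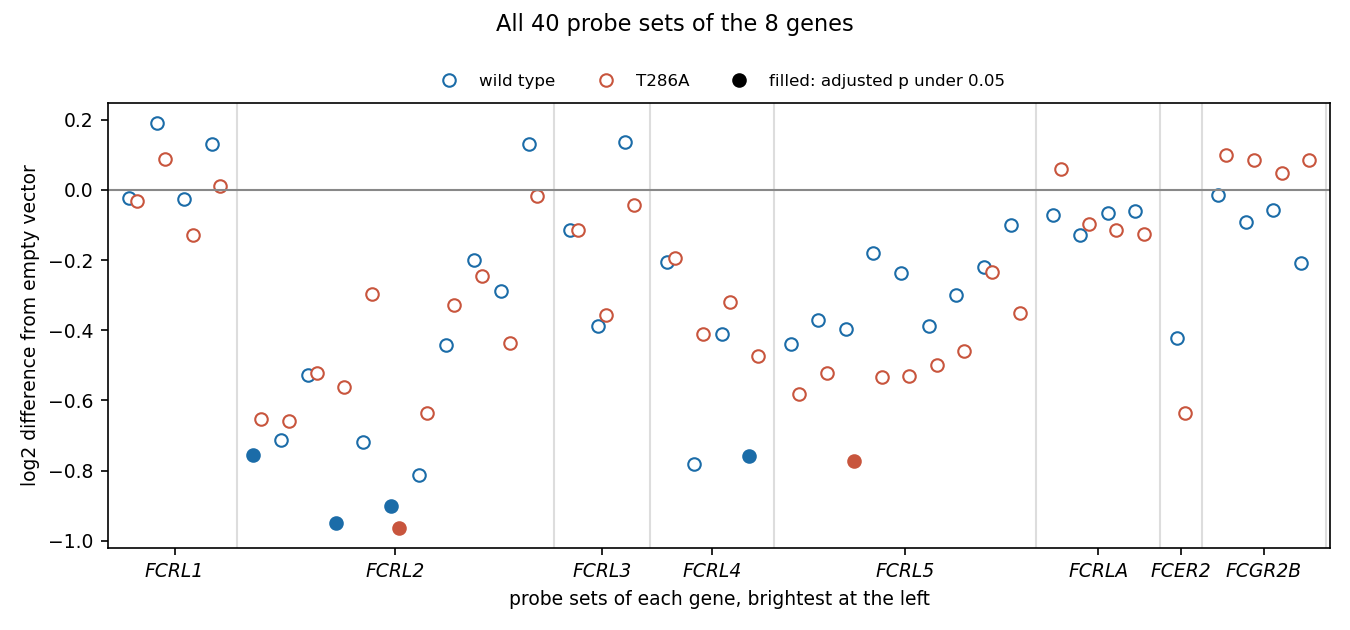
Log2 difference from empty vector of all 40 probe sets of the 8 genes with wild type (blue) and T286A (red), ordered within each gene from the brightest; filled points have an adjusted p under 0.05 over 45220 probe sets. All FCRL4 and FCRL5 points lie below 0, and in FCRL2 all but 1 wild-type point do.

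FCRL1 and FCRL3 were dim, each with a mean of 4.68, and all of their probe sets lay below the median of all genes. FCRL1 is an activating receptor of B cells, and FCRL3 binds secretory IgA. FCRL1 was at 4.73 and 4.67 in empty vector, 4.74, 4.60 and 4.69 with wild type, and 4.77, 4.46 and 4.78 with T286A. FCRL3 was at 4.72 and 4.81, at 4.46, 4.51 and 4.98, and at 4.69, 4.74 and 4.51 in the same order of groups. In these probe sets the groups overlapped, and differences lay between -0.12 and -0.02 with no call (smallest limma adjusted p = 0.823). The second FCRL3 probe set, with a mean of 4.65, was at 4.99 and 4.85 in empty vector, 4.46, 4.35 and 4.80 with wild type, and 4.39, 4.60 and 4.71 with T286A. Both controls lay above its construct arrays, and its differences of -0.39 and -0.36 were not called (limma adjusted p = 0.346 and 0.435). The remaining FCRL3 probe set, with a mean of 4.57, was at 0.14 with wild type and -0.04 with T286A. Its construct arrays overlapped the controls, and neither difference was called (limma adjusted p = 0.758 and 0.953). The other FCRL1 probe sets ranged from -0.02 to 0.19 with wild type and from -0.13 to 0.09 with T286A, with 0 called by limma. The values carry no detection call, and background in dim probe sets makes differences too small, so a change in these genes was not detectable here rather than shown to be absent.

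FCRLA and FCGR2B were bright and showed no called change. FCRLA encodes an intracellular protein of the endoplasmic reticulum that binds immunoglobulin within B cells. Its levels were 11.37 and 11.47 in empty vector, 11.35, 11.39 and 11.30 with wild type, and 11.52, 11.43 and 11.48 with T286A. The T286A arrays were all above the wild-type arrays, by 0.13 (95% interval -0.012 to 0.27, limma adjusted p = 0.404), and the controls overlapped both. The 3 other FCRLA probe sets gave -0.07 to 0.03 for that difference.

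FCGR2B was at 9.76 and 9.79 in empty vector, 9.68, 9.81 and 9.79 with wild type, and 9.81, 9.89 and 9.92 with T286A. The differences were -0.01 (95% interval -0.18 to 0.15) with wild type and 0.10 (-0.065 to 0.26) with T286A, neither called (limma adjusted p = 0.964 and 0.663). T286A arrays were all above empty vector in this gene, 1 of 5 members without overlap in that comparison, as were 31.9% of all genes. With wild type 3 members, FCRL2, FCRL5 and FCER2, had no overlap, against 30.5% of all genes. All 4 FCGR2B probe sets are of the _s_at or _x_at kind, which can read relatives, and the near-identical FCGR2C had no probe set of its own here, so the value is uncertain between these genes.

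Compared directly, T286A and wild type gave 0 called members in limma, and 1, FCER2, at an unadjusted p under 0.05, where 0.987% of all genes were called and 13.6% had such a p. By chosen probe set FCER2 and FCRLA had no overlap between constructs, in opposite directions, against 19.8% of all genes. The widest 95% interval of this difference was that of FCRL3, from -0.32 to 0.31, so the arrays do not show that the constructs act alike. With the constructs pooled against empty vector, 3 of 8 members were called lower and 0 higher, against 0.697% and 0.702% of all genes. FCRL2 differed by -0.70 ± 0.087, FCER2 by -0.53 ± 0.082 and FCRL5 by -0.51 ± 0.076 (limma adjusted p = 0.0144, 0.0255 and 0.0224). None of these 3 was called without either empty vector replicate (adjusted p from 0.152 to 0.215). FCRL5 and FCER2 also lost the call without any 1 of the T286A replicates, and FCER2 without wild-type replicate 1 (adjusted p from 0.0571 to 0.0674).

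Around the members, most related genes were not called, which also held for most of all genes. Among 14 measured other Fc and immunoglobulin receptors limma called 0 with either construct. Of all genes 1.14% were called lower and 0.603% higher with wild type, and 0.192% and 0.34% with T286A. At these shares lists this small would hold few calls, so 0 is no result about them. Most of these receptors also lay below the median of all genes. An unadjusted p under 0.05 was reached by 2 with wild type and 3 with T286A, where 13.5% and 12.1% of all genes reached it. Of these, 1 was lower with wild type and 2 with T286A. FCGR2A, an activating IgG receptor and neighbour of FCGR2B, was at 0.32 with wild type and 0.40 with T286A (adjusted p = 0.221 and 0.154). FCMR was at -0.19 and -0.26 (adjusted p = 0.252 and 0.147). Of 11 ITIM phosphatases and adaptors and of 13 B-cell receptor kinases and cofactors 0 were called by limma with either construct. The shares of all genes were those above. At an unadjusted p under 0.05 these lists had 3 and 2 genes with wild type and 1 and 1 with T286A. The phosphatase SHP-1, PTPN6, was at -0.18 and -0.25 (adjusted p = 0.364 and 0.227). In 11 other inhibitory B-cell receptors, CD22 fell by 0.40 ± 0.079 with wild type (adjusted p = 0.0498), and its difference with T286A was -0.18 (adjusted p = 0.409). That call was lost without any 1 of the 8 arrays (adjusted p from 0.0607 to 0.251).

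Among the genes tied to CD23 a few were called. Of 19 partners, sheddases and regulators, 1 was called higher and 2 lower with wild type, where 0.603% and 1.14% of all genes were. With T286A 0 and 1 were called, where the shares were 0.34% and 0.192%. At an unadjusted p under 0.05 in limma, 2 were higher and 8 lower with wild type, and 0 and 5 with T286A. Of all genes 13.5% and 12.1% reached such a p in either direction. The medians of the list were -0.21 and -0.05. CD40, a receptor whose signal raises CD23 in B cells, fell by 0.68 ± 0.066 with wild type and 0.51 ± 0.066 with T286A (limma adjusted p = 0.00345 and 0.0288). The wild-type call was lost without either empty vector replicate (adjusted p = 0.0513 and 0.0514), and the T286A call held only without wild-type replicate 2 (otherwise 0.0508 to 0.213). IL2RG, the common cytokine receptor chain that pairs with the IL-4 receptor, fell by 0.45 with wild type (adjusted p = 0.0433) and was at -0.26 with T286A (adjusted p = 0.270). That call was lost without any 1 array (adjusted p from 0.0531 to 0.268). The kinase JAK1 rose by 0.53 with wild type (adjusted p = 0.0173) and was at -0.17 with T286A (adjusted p = 0.449). The rise was not called without wild-type replicate 1 or 3 or either empty vector replicate (adjusted p from 0.0532 to 0.132). STAT6, the transcription factor of IL-4 signalling, was at -0.30 and -0.27 (adjusted p = 0.236 and 0.324). The sheddase ADAM10 was at -0.00 and -0.04, ADAM17 at 0.08 and 0.07, and ADAM8 at -0.14 and -0.65 (adjusted p = 0.751 and 0.109). For ADAM8, T286A against wild type was -0.50 (adjusted p = 0.153). CR2 (CD21), a partner of CD23, was at -0.35 and -0.32 (adjusted p = 0.125 and 0.191).

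**Figure D4:**
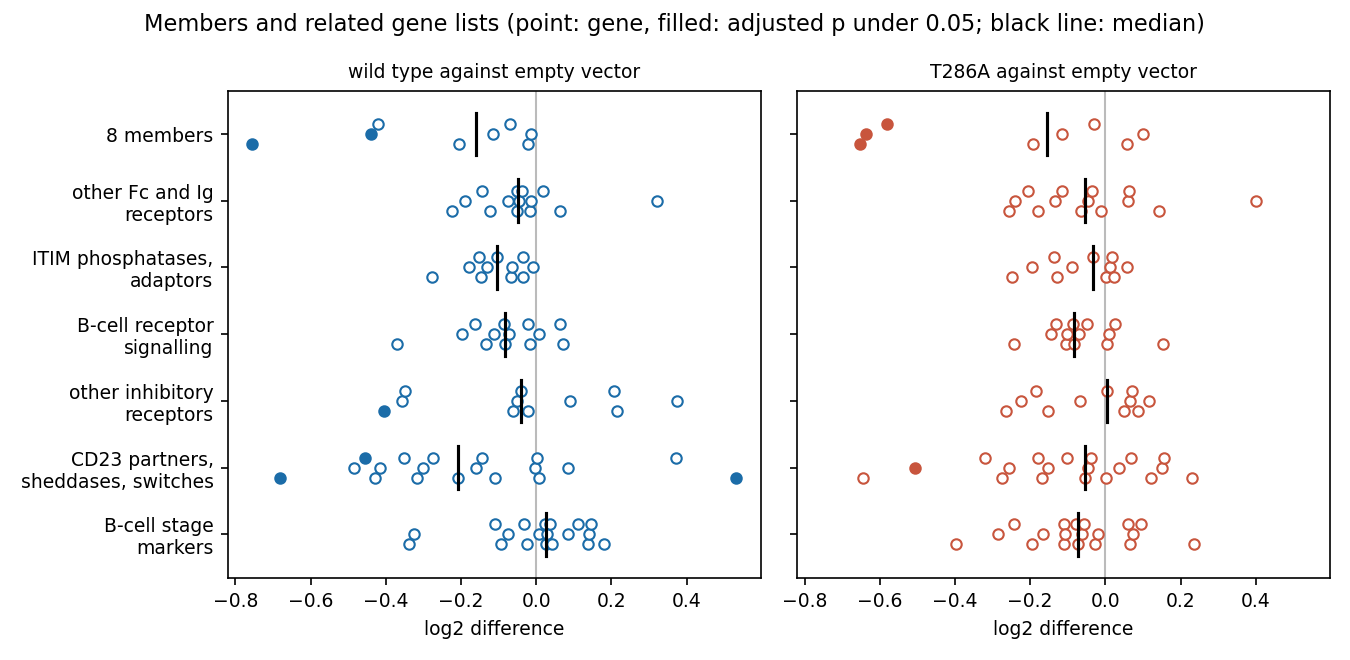
Log2 difference from empty vector of the 8 genes and of 6 related lists (points are genes, black lines medians) with wild type at the left and T286A at the right; filled points have an adjusted p under 0.05. Filled points are few outside the 8 genes, with CD40 the single one among the lists with T286A.

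The genes whose profile over the 8 arrays was most like that of a called member came from outside the family. They were sought among 345 genes at or above the median level with group means at least 0.5 apart. For FCRL2 they were LACTB (Pearson r = 0.968), WNT5B (0.948), CFLAR (0.947), HOOK1 and CCR9 (both 0.941). For FCRL5 they were IL4I1 (0.989), PTP4A3 (0.977), TRAF1 (0.975), CCL3 (0.958) and UCP2 (0.956). For FCER2 they were ZNF165 (0.968), PNRC1 (0.960), B9D1 (0.951), ZDHHC24 (0.946) and TSPAN31 (0.946). Of the 8 members only FCRL2, FCRL5 and FCER2 met the limits of this search, so few relatives could take a place. FCER2 ranked at place 10 for FCRL5 (r = 0.911), and FCRL2 at place 36 (0.823). These correlations over 8 arrays rest mainly on the gap between empty vector and construct arrays and are given as a description.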

How the data were processed

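The authors deposited 1 table of log2 expression values. Per the submitters' processing notes it was made with RMA and R 3.5.0. This method subtracts background, equalises the distributions of the arrays and summarises probes, so differences are relative to the other genes. The array platform's annotation named 45220 of 48864 probe sets with 1 gene, 1325 with several and 2309 with none; 10 control probe sets were left out. The brightest probe set on average stood for each of 18231 genes and was fitted with a mean per group (limma 3.58.1 in R 4.3.3, default eBayes, 5 residual and 3.27 prior degrees of freedom), without an intensity filter. The fit was tested on simulated data. The number of arrays limits the precision; there is no depth. All probe sets were also fitted singly. Alternatives covered probe set choice, scaling, a filter on dim genes, eBayes settings, array weights, samples in the fit, a replicate block and leaving out each array. Members and lists were chosen with earlier results of these data known. All members are named, with the 5 genes most like each called one; of the 5 nearest measured genes on either side, those next to FCRL5, FCRL1 and FCER2 are named and the rest summarised; of other lists, called genes (at most 4) or else up to 2 with the smallest p were eligible, and the ADAM proteases, STAT6 and CR2 were named for their role after their values were seen. Upstream windows came from RefSeq (GRCh38.p14); all 8 members matched.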

Additional observations from a re-analysis of the deposited data

Results flagged for a closer look

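Of the genes in the related lists and marker lists, 4 differed between the constructs by the test of T286A against wild type. T286A minus wild type was -0.70 for the kinase JAK1, -0.64 for the immunoglobulin joining chain JCHAIN, -0.54 for the transcription factor LEF1 and 0.35 for the inhibitory receptor CD300A (limma adjusted p = 0.00445, 0.00445, 0.0127 and 0.0479). JAK1 and JCHAIN kept the call without each array in turn. LEF1 lost it without T286A replicate 1 or 2 (adjusted p = 0.0581 and 0.0593), and CD300A without any 1 array (adjusted p from 0.0938 to 0.16). All are differences of 3 against 3 arrays. Of the 8 members 0 met this test.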

How the results depend on the processing

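The differences of FCRL2, FCRL5 and FCER2 from empty vector stayed negative under every alternative run; what changed was whether they passed the threshold. With the replicate block the called members fell to 0 for both constructs together, 0 with wild type and 0 with T286A, and called genes to 7, 71, 3 and, for T286A against wild type, 86. The labels do not pair the numbers. The deviations of same-numbered arrays from their group means correlated between -0.0909 and 0.119. The deviations of the 2 controls mirror each other, so their correlations with any other array are equal and opposite and cannot decide a pairing. With only the groups compared, members called were 1 with wild type and 0 with T286A, and genes called 68 and 4. Adjusted over all probe sets, members called were 1 and 0. They were 4 for both constructs and 3 with wild type with the mean of all probe sets, which added FCRL4 in both, and FCER2 in place of FCRL5 with wild type, and 3 with wild type with dim genes left out or trended robust eBayes, which added FCER2. Genes called were 624, 629, 527 and 381 with dim genes left out (both constructs, wild type, T286A, T286A against wild type), and 738, 747, 626 and 602 with trended robust eBayes, in place of 255, 317, 97 and 180. Array weights gave 436 for both and 317 for T286A, and the mean of all probe sets 190 for T286A. Leaving out 1 array gave 0 to 3, 0 to 2, 0 to 2 and 0 to 0 called members and 3 to 199, 22 to 196, 1 to 87 and 70 to 128 called genes. Fits without an empty vector array leave 1 control, assumed to vary like the other groups. Centring on housekeeping genes turned the split of calls from 128 higher and 127 lower to 72 and 131 for both, from 62 and 35 to 25 and 41 for T286A, and from 109 and 71 to 91 and 94 for T286A against wild type. Signs turned only in uncalled differences near 0. For both constructs together, FCRL1 was at 0.027 and FCGR2B at -0.0062 with the mean of all probe sets, and FCRLA at 0.0004 when quantile normalized again and 0.0051 with the replicate block. With the mean of all probe sets FCRL1 was at 0.068 with wild type and FCRLA at -0.069 with T286A. For T286A against wild type, re-normalization gave 0.008 for FCRL1, 0.015 for FCRL3 and -0.042 for FCRL4, and housekeeping centring -0.027 for FCRL4. Leaving out 1 array, FCRL1 ranged from -0.056 to 0.027 (both), -0.056 to 0.017 (wild type), -0.086 to 0.076 (T286A) and -0.063 to 0.099 (T286A against wild type). FCGR2B ranged from -0.0401 to 0.028 with wild type and FCRLA from -0.055 to 0.043 for both, and for T286A against wild type FCRL3 ranged from -0.096 to 0.17 and FCRL4 from -0.079 to 0.11. The cause of these changes was not tested. For both constructs together, restricting the fit to the groups compared changes nothing, since all arrays enter.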

Other observations

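The 30 measured genes that neighbour the members, 20 on chromosome 1 and 10 on chromosome 19, had no called change in limma with either construct. Of all genes 1.14% were called lower and 0.603% higher with wild type, and 0.192% and 0.34% with T286A. ETV3, CD5L and CLEC4G averaged 5.48, 4.64 and 4.47, below the median of all genes (5.94), and TRAPPC5 averaged 10.73. The absence of calls thus does not show that the neighbours were unchanged. Their differences ran from -0.31 to 0.40 with wild type (median 0.037) and from -0.24 to 0.40 with T286A (median 0.011). ETV3, the nearest measured neighbour of FCRL5 outside the family, was at -0.31 with wild type and -0.00 with T286A (limma adjusted p = 0.420 and 0.998). CD5L, next to FCRL1, was at 0.11 and 0.12 (adjusted p = 0.798 and 0.806). CD23's neighbours CLEC4G and TRAPPC5 were at 0.10 and -0.07 with wild type and at -0.01 and -0.24 with T286A, none called.

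Of 19 measured stage markers of B cells limma called 0 against empty vector with either construct. The shares of all genes called are those given for the neighbours. An unadjusted p under 0.05 was reached by 2 with wild type and 4 with T286A, where 13.5% and 12.1% of all genes reached it. LEF1, which differed between the constructs, was at 0.15 with wild type and -0.40 with T286A (adjusted p = 0.485 and 0.0762). TBX21, the T-bet factor of FCRL-high atypical memory cells, was at -0.34 with wild type and -0.29 with T286A (adjusted p = 0.0938 and 0.177). CD200, a marker shared with chronic lymphocytic leukaemia, was at -0.32 with wild type and -0.20 with T286A (adjusted p = 0.0517 and 0.261). Of 5 plasma cell markers SDC1 (CD138) rose by 0.38 with wild type (adjusted p = 0.0411), a call lost without any 1 array (adjusted p from 0.0673 to 0.244). JCHAIN was at -0.43 with T286A (adjusted p = 0.0510).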
